A study of Mus musculus with 4 samples.

Results

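Coverage of the transcription factor splice isoforms Mef2Da1 and Mef2Da2 was compared directly, region by region, over the combined table of the study. All 19749 regions of the table were used, so the set compared is the whole table, and 2 of the 4 libraries supply the ratio. Both libraries came from C2C12 cells, a mouse myoblast line, kept for 5 days in low-serum medium with insulin and transferrin so that the myoblasts form myotubes. The Mef2Da1 library was precipitated with an antibody raised against a peptide of Mef2Da1, and the Mef2Da2 library with one raised against a peptide of Mef2Da2. The other 2 libraries, Mef2Da1-BLOCK and Mef2Da2-BLOCK, used the same antibodies blocked with their own peptide, and they serve here as the background. All 4 came from this 1 line, and the labels of the isoform libraries name the endogenous proteins. There was 1 library in each group, so no value has a replicate error and nothing was tested. Isoform and antibody changed together, and their parts in a ratio cannot be told apart. The number of reads behind each library is unknown.

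Mef2D belongs to the MEF2 family, MADS-box proteins that bind A/T-rich sites in the promoters and enhancers of muscle genes and work with myogenic regulators such as MyoD and myogenin. Its transcript carries a pair of mutually exclusive exons. The form known as alpha 1 is found in many tissues, and the form known as alpha 2 appears as muscle cells differentiate. Both keep the amino-terminal DNA-binding part, and they differ in a segment after it, which bears on phosphorylation and on the cofactors that the protein recruits. The comparison asks how far the coverage of both forms differs from place to place in the same myotubes.

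The value of a library in a region is the maximal coverage height, a whole number that the authors did not scale to depth. The ratio of each region is log2 of the Mef2Da1 height plus 1 over the Mef2Da2 height plus 1, less the log2 ratio of the column totals. Positive values lie toward Mef2Da1. Summed over the table the heights came to 973579 for Mef2Da1 and 955997 for Mef2Da2, so this scaling shifts the ratio little. The blocked libraries summed to 377117 and 247315. Scaling to the median ratio instead lowers every log2 ratio by 0.17.

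Most regions carried similar coverage of both isoforms. The median log2 ratio was 0.17, with quartiles of −0.30 and 0.60, and 5th and 95th percentiles of −1.18 and 1.24. Mef2Da2 coverage was more spread out on the log2 scale. Its log2 heights had an SD of 0.79 across regions, against 0.57 for Mef2Da1. Mef2Da2 was at 100 or more in 1494 regions and at less than 20 in 1125, whereas Mef2Da1 was at 100 or more in 824 regions and at less than 20 in 276. The blocked libraries had medians of 19 (Mef2Da1-BLOCK) and 12 (Mef2Da2-BLOCK), and neither reached 100 anywhere.

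The ratio moved from Mef2Da1 toward Mef2Da2 as coverage increased. Regions were put in 10 classes of equal size (deciles) by the scaled heights of both isoforms added together, called summed height. In the lowest decile, at a summed height of 51.7 to 59.0, the median Mef2Da1 height was 33 and the median Mef2Da2 height 23, and the median log2 ratio was 0.48. In the highest decile, at 158 to 1561, the median heights were 92 and 117 and the median log2 ratio was −0.33. Mef2Da1 had the higher scaled coverage in 78.8% of the lowest decile and in 29.2% of the highest. The difference between the outer deciles was −0.81 on the log2 scale. Scaling to the median ratio cannot change it, since that subtracts the same constant from every ratio. The same side held among the very highest regions: over the 100 with the greatest summed height the median ratio was −0.39, and 26% had more Mef2Da1. Across all regions, which share both libraries with the summed height, the Spearman correlation of the ratio with summed height was −0.35.

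The blocked controls were read in the same deciles. Their heights take no part in the ranking, whereas those of the isoforms do, so they are no control for the tilt of the isoform ratio. Their log2 ratio, scaled in the same way, had a median of −0.02 in the lowest decile and −0.02 in the highest, and it stayed between −0.05 and 0.01 in the deciles between. At the 2-fold level the background of the isoform ratio was 9.62% of all regions toward Mef2Da1 and 7.03% toward Mef2Da2. With scaling to the median ratio it was 6.20% and 9.78%, so the side with more such regions turned with the scaling. From the lowest to the highest decile the share toward Mef2Da1 went from 18.7% to 1.47%, and the share toward Mef2Da2 from 1.82% to 19.9%. Scaled to the median ratio they went from 12.3% to 0.861% and from 2.48% to 24.7%. For the blocked libraries those shares were 5.12% and 3.34% toward Mef2Da1-BLOCK, and 5.32% and 3.14% toward Mef2Da2-BLOCK.

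**Figure D1:**
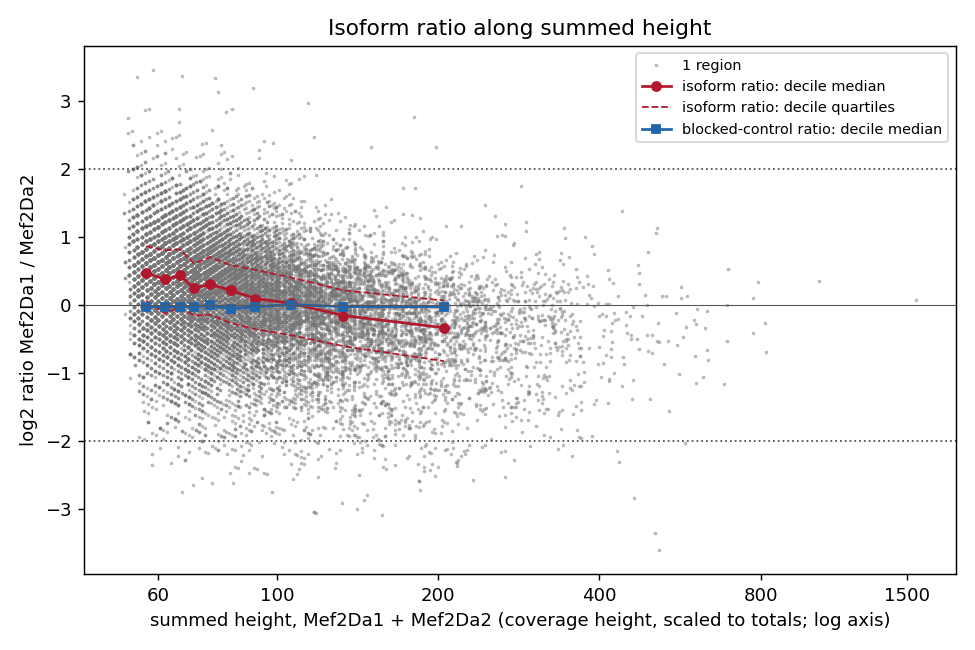
Log2 ratio of Mef2Da1 over Mef2Da2 (total scaling, y axis) against summed height (log x axis), with each region as a grey point. Red points and dashed lines are the median and quartiles of each decile, blue squares the median ratio of the blocked controls, and dotted lines mark 4-fold: the red medians go from 0.48 to −0.33 while the blue ones stay within −0.05 and 0.01.

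Which isoform was used for the ranking changed the picture. Ranked by Mef2Da2 height alone, the median ratio went from 1.16 in the lowest decile to −0.60 in the highest. Ranked by Mef2Da1 height alone it was −0.76 in the lowest decile (heights of 8 to 29), reached 0.49 in the seventh (47 to 51) and came back to 0.06 in the highest (75 to 808). Thus regions of very high Mef2Da1 coverage mostly had comparable Mef2Da2 coverage, with medians of 94 and 97. Each of these rankings uses a height that is also part of the ratio, so a tilt of the ratio along it is in part built in. In addition, the lowest sum of the isoforms' −log10 p in the table was 6.06, which bounds the lowest deciles.

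The width of the ratio distribution changed little along summed height. The interquartile range was 0.79 in the lowest decile and 0.89 in the highest, and it lay between 0.75 and 0.92 in those between. When only the regions with a listed peak of at least 1 isoform were ranked, their lowest decile had an interquartile range of 2.14 and the highest 0.89. None of the 1222 regions in that lowest decile held a peak of both isoforms, whereas 1170 of 1223 (95.7%) in the highest did. For the blocked controls the range went from 0.85 to 0.70.

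Differences of at least 4-fold were rare on both sides and lay at opposite ends of the summed-height scale. They were found in 78 regions toward Mef2Da1 (0.395% of all) and in 152 toward Mef2Da2 (0.770%). The ratio of the blocked controls passed 4-fold in 0.208% of the same regions toward Mef2Da1-BLOCK and in 0.0456% toward Mef2Da2-BLOCK. With scaling to the median ratio the isoform counts were 57 (0.289%) and 236 (1.19%), and with scaling to the totals of the blocked libraries 15 (0.0760%) and 608 (3.08%), so the number of such regions moved with the scaling. Of the 19749 regions, it was 35 and 85 with a pseudocount of 5, and 337 and 383 after division by the ratio of the blocked controls. In all of these cases more regions were past the limit toward Mef2Da2, but after that division the sides were close to even. The division also brings in the low heights of the blocked libraries.

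Of the 78 regions toward Mef2Da1, 27 were in the lowest decile of summed height and 2 in the highest. That is 1.37% of the lowest decile (95% Clopper-Pearson interval 0.903 to 1.98, which covers counting error only) and 0.101% of the highest (0.0123 to 0.365). The 152 regions toward Mef2Da2 had the reverse layout, with 2 in the lowest decile (0.101%, interval 0.0123 to 0.366) and 56 in the highest (2.84%, 2.15 to 3.67). With scaling to the median ratio 15 of 57 were in the lowest decile toward Mef2Da1, and 74 of 236 were in the highest toward Mef2Da2. The orientation was the same under both scalings. They use the same deciles and differ by a constant, so the second only moves the limit and is no separate check. Summed height holds both heights of the ratio, so the layout along it is in part built in. Ranked by Mef2Da1 height alone, the lowest decile held 0 of the regions toward Mef2Da1 and the highest 11. Of the regions toward Mef2Da2, those deciles held 102 and 2.

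The coverage behind these ratios also differed in shape between the sides. Regions at least 4-fold toward Mef2Da1 had a median Mef2Da1 height of 54.5 (quartiles 48 and 66.8, highest 167). Their Mef2Da2 height had a median of 10 and did not exceed 32, beside a median of 11 in Mef2Da2-BLOCK. In 49 of the 78 (62.8%), Mef2Da2 was not above its own blocked library, against 2.32% of the 19519 regions within 4-fold. Regions at least 4-fold toward Mef2Da2 had a median Mef2Da2 height of 106 (quartiles 71.8 and 158, highest 474) and a median Mef2Da1 height of 20.5, beside 13 in Mef2Da1-BLOCK. There Mef2Da1 was not above its own blocked library in 22 of 152 (14.5%), against 0.620% of the regions within 4-fold. A large ratio needs 1 low height, so both shares follow in part from the choice of regions. The first group had moderate Mef2Da1 coverage with Mef2Da2 at about the level of its blocked control, and the second had strong Mef2Da2 coverage.

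The authors' −log10 p values give the same contrast in another unit and are no separate support. Across regions their difference had a Spearman correlation of 0.97 with the ratio that chose these regions. A split by side thus follows in large part from the choice. In regions at least 4-fold toward Mef2Da1 the deposited −log10 p had a median of 7.31 for Mef2Da1 and 1.05 for Mef2Da2, and Mef2Da2 was under 3 in 76 of 78, against 10.7% of the regions within 4-fold. On the other side the medians were 18.2 for Mef2Da2 and 2.07 for Mef2Da1, and Mef2Da1 was under 3 in 96 of 152, against 7.48%. The listed peaks had the same layout: 68 of the 78 held a listed Mef2Da1 peak only and 10 no listed peak, whereas 138 of the 152 held a Mef2Da2 peak only and 14 held peaks of both isoforms. Among all regions 5247 held peaks of both, 7528 held none, 3006 had a listed peak of Mef2Da1 alone and 3968 one of Mef2Da2 alone. No region past 4-fold toward Mef2Da1 held a Mef2Da2 peak, and Mef2Da2 height did not exceed 32 there. Regions with a Mef2Da2 peak alone had a lower quartile of 43 in Mef2Da2 height, so this absence is in part built in.

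**Figure D2:**
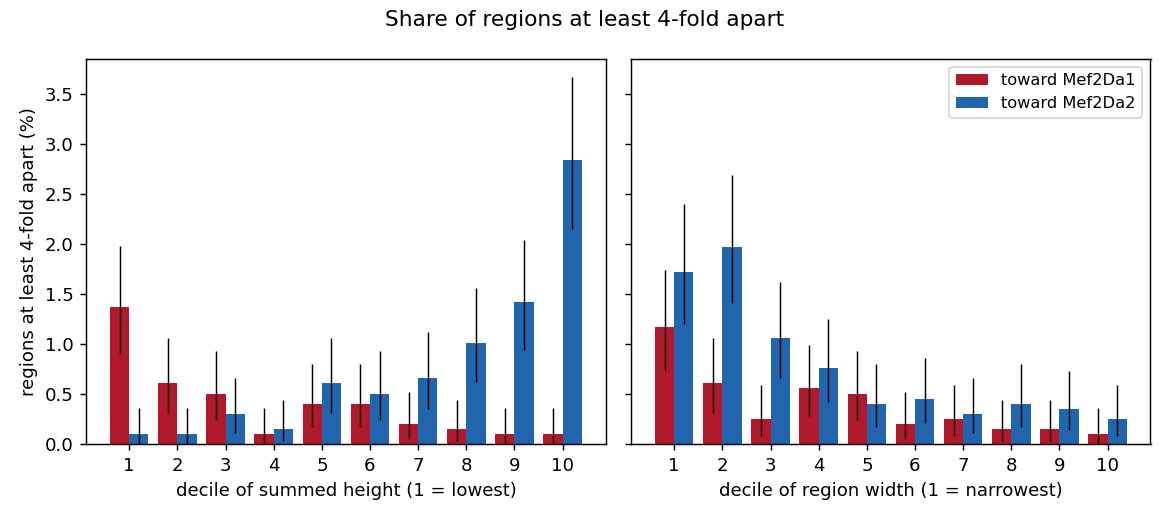
Share of regions at least 4-fold apart (%, total scaling) in each decile of summed height (left) and of region width (right), red toward Mef2Da1 and blue toward Mef2Da2; bars carry exact 95% binomial intervals for counting error. On the left the red bar is highest in decile 1 (1.37%) and the blue bar in decile 10 (2.84%); on the right both sides are highest among narrow regions.

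The 10 regions with the greatest ratio toward Mef2Da1 all held a Mef2Da1 peak only. Their Mef2Da1 heights ran from 51 to 103 and their Mef2Da2 heights from 4 to 12, and Mef2Da2 was not above Mef2Da2-BLOCK in 9 of them. Coordinates are of the build mm9, as given in the table, and were not tied to genes because no annotation of that build was used. The strongest in coverage was chr11:69273356-69273925, where Mef2Da1 stood at 103 and Mef2Da2 at 12, and the blocked libraries at 25 and 11 (log2 ratio 2.97). At chr9:121450671-121451004 the heights were 71 and 6 against 6 and 8 (3.34). At chr2:167848975-167849712 they were 83 and 8 against 17 and 12 (3.20), and at chr16:14004323-14004652 they were 71 and 7 against 17 and 15 (3.14). In all 4 of these regions Mef2Da1 stood far over its own control, while Mef2Da2 was level with its own or below it.

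Toward Mef2Da2 the 10 greatest ratios came from stronger coverage. Mef2Da2 heights ran from 104 to 474 and Mef2Da1 heights from 12 to 57, and each of the 10 lay in the top 3 deciles of summed height. At chr1:74795224-74796558, where both isoforms had a listed peak, Mef2Da2 reached 405 and Mef2Da1 57, against 17 and 31 in the blocked libraries (−2.83). At chr13:102003427-102003775 the heights were 125 and 15 against 7 and 12 (−3.00). At chr6:42333990-42334349 they were 105 and 12 against 6 and 6 (−3.05), and at chr11:54524023-54524385 they were 104 and 12 against 5 and 10 (−3.04). Mef2Da2 was far above its control in each, and Mef2Da1 was low in both the isoform and the blocked library at the last 3.

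Within the highest decile of summed height the extremes were again unequal. The 5 regions furthest toward Mef2Da1 had log2 ratios of 1.73 to 2.77, and the 5 furthest toward Mef2Da2 had −3.60 to −2.58. The furthest toward Mef2Da1 was chr8:86108658-86109184, where the Mef2Da1 height was 159, the Mef2Da2 height 22 and the blocked heights 36 and 22. At chr8:74842631-74843422 both isoforms had a listed peak, and Mef2Da1 stood at 222, Mef2Da2 at 64 and the blocked libraries at 30 and 17 (1.75). Toward Mef2Da2, chr13:13729852-13730271 had 160 for Mef2Da2 and 24 for Mef2Da1 against 15 and 10 (−2.71), and chr1:72243600-72243982 had 157 and 26 against 14 and 18 (−2.58). By contrast, the 3 regions with the greatest summed height of the table had ratios near 0 or modestly to either side (0.08, 0.36 and −0.69).

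The 4-fold limit fell among closely graded values. Just inside it toward Mef2Da1 were a pair of regions with 44 against 10, and just outside a pair with 56 against 13. Toward Mef2Da2, Mef2Da1 and Mef2Da2 heights of 14 and 58, and of 13 and 54, were just inside, and 29 and 116, and 31 and 123, just outside.

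Wide regions leaned toward Mef2Da1, and more clearly once height was held in a narrow range. The narrowest decile (224 to 355 bp) had a median ratio of 0.11 and the widest (1031 to 4259 bp) one of 0.23, a difference of 0.12. Wide regions also had more coverage, with a Spearman correlation of 0.37 between width and summed height across regions, and coverage went with the opposite side of the ratio. Within quintiles of summed height the widest quintile exceeded the narrowest by 0.36 in the lowest quintile of height, by 0.45, 0.50 and 0.47 in the next 3, and by 0.31 in the highest. Their mean was 0.49 when the outer width deciles were replaced by deciles within each height quintile. In the highest height quintile narrow regions had a median of −0.44 and wide ones −0.12, so both leaned to Mef2Da2 there.

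Regions past 4-fold were mostly narrow. Their median width was 438 bp toward Mef2Da1 and 411 bp toward Mef2Da2, against 559 bp in regions within 4-fold. Toward Mef2Da1 they made up 1.17% of the narrowest decile (0.740 to 1.74) and 0.101% of the widest (0.0123 to 0.365), where the background over all regions is 0.395%. Toward Mef2Da2 the shares were 1.72% (1.20 to 2.40) and 0.253% (0.0823 to 0.590), against 0.770%. In the highest quintile of summed height, 84 of 3950 regions were past 4-fold toward Mef2Da2. Of these, 48 lay in the narrowest quintile of width and 3 in the widest, with 790 regions in each class. Toward Mef2Da1 the same classes held 2 and 0. The lowest quintile of summed height held 39 of the 78 regions toward Mef2Da1, with 14 in its narrowest quintile of width and 2 in its widest. Toward Mef2Da2 those classes held 4 and 0. In the height quintiles between, from low to high, the counts toward Mef2Da1 were 5 and 2, 8 and 2, and 1 and 1. The authors' rule for region edges is not given in the sources used here, and the dependence of width on coverage itself was not separated further.

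**Figure D3:**
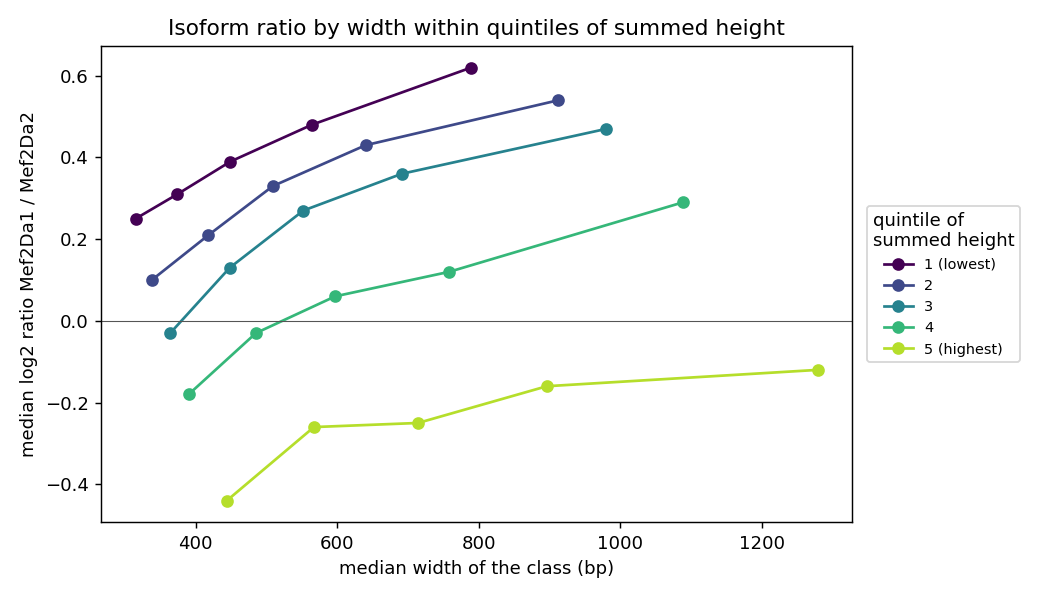
Median log2 ratio of Mef2Da1 over Mef2Da2 (total scaling, y axis) in 5 width classes, placed at their median width in bp (x axis), with 1 line for each quintile of summed height. Every line climbs from narrow to wide classes, from 0.25 to 0.62 in the lowest quintile and from −0.44 to −0.12 in the highest.

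Where both isoforms had a listed peak in the same region (5247 regions), the widths of the peaks themselves were compared. Over all of them Mef2Da1 had the wider peak in 72.9%, with median widths of 444 bp for Mef2Da1 and 385 bp for Mef2Da2. These regions were put in quintiles by their ratio. In the quintile furthest toward Mef2Da2, the highest Mef2Da1 and Mef2Da2 peaks had median widths of 432 and 433 bp, and Mef2Da1 had the wider peak in 46.1% of regions. In the quintile furthest toward Mef2Da1 the median widths were 468 and 344 bp, and Mef2Da1 had the wider peak in 92.9%. In the middle quintile, where the median heights were 62 and 63, it had the wider peak in 75.3%. Peak midpoints stayed close throughout, with a median distance of 27 bp in the first of these quintiles and 33 bp in the last. Only regions with listed peaks of both isoforms enter here, and their median width was 695 bp. Short distances between midpoints are thus in part built in, and regions with a peak of 1 isoform are not covered.

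The ratio also went with the coverage of the blocked libraries. Regions were ranked by the scaled heights of both blocked libraries added together, which take no part in the isoform ratio. In the lowest decile the median heights were 35 for Mef2Da1 and 43 for Mef2Da2, with 10 and 5 in the blocked libraries, and the median log2 ratio was −0.31. In the highest decile they were 53 and 36, with 29 and 21, and the ratio was 0.48. Mef2Da1 coverage was thus higher where blocked coverage was higher, and Mef2Da2 coverage was not. Median Mef2Da1 height went from 35 to 53 over the deciles, while that of Mef2Da2 went from 43 to 33 in the seventh and eighth and stood at 36 in the last. The lowest sum of the isoforms' −log10 p over all regions was 6.06. A region low in 1 isoform is therefore present only with a higher value of the other. Median Mef2Da2 height was 41 in the lowest decile of Mef2Da1 height and 30 in the fourth. The part of this limit in the trend was not tested.

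Both blocked libraries took part in this trend. Across regions, which share the libraries and lie next to each other in places, the ratio had a Spearman correlation of 0.33 with Mef2Da1-BLOCK height and of 0.27 with Mef2Da2-BLOCK height. Its correlation with the ratio of the blocked libraries was 0.01. The median blocked ratio moved in the opposite direction, from 0.17 in the lowest decile to −0.21 in the highest. Within quintiles of summed height the gain from the lowest to the highest quintile of blocked coverage was 0.62, 0.74, 0.85, 0.84 and 0.46, from the lowest quintile of height to the highest. Regions past 4-fold toward Mef2Da2 went from 2.28% of the lowest decile of blocked coverage to 0.152% of the highest, against 0.770% overall. Those toward Mef2Da1 did not show the reverse course: they made up 0.203% of the lowest decile, 0.709% of the third and 0.253% of the highest, against 0.395% overall. Width went along as well, since the median width was 400 bp in the lowest decile of blocked coverage and 799 bp in the highest. The part of blocked coverage in the isoform ratio was not tested.

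**Figure D4:**
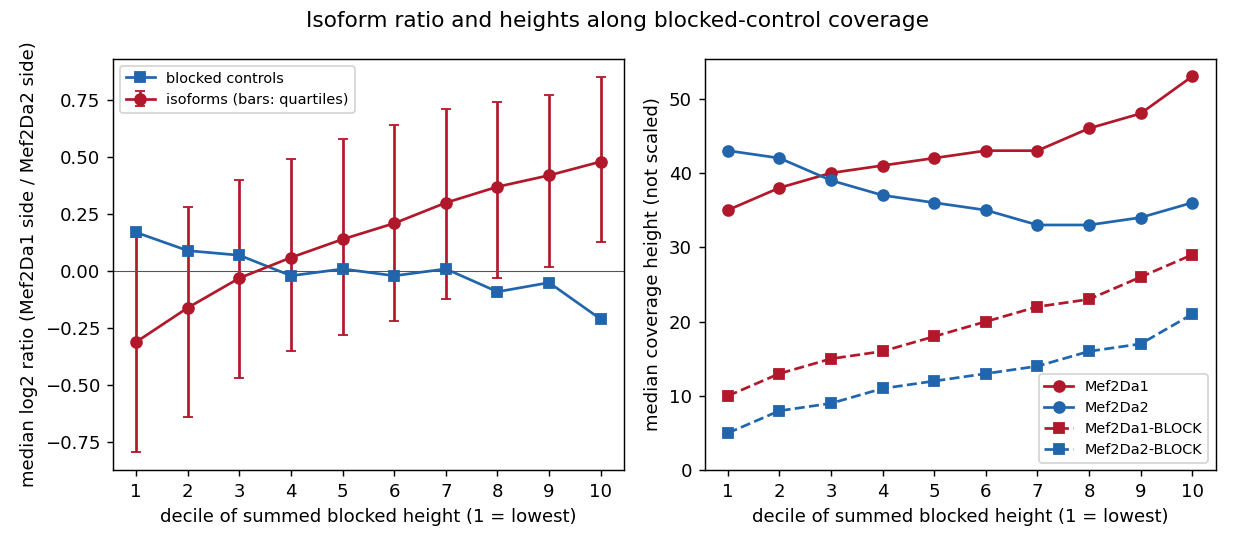
Left, median log2 ratio of the isoforms (red, bars are quartiles) and of the blocked controls (blue) in deciles of summed blocked height; right, median unscaled coverage height of the 4 libraries in the same deciles. The isoform ratio goes from −0.31 to 0.48 and the blocked ratio from 0.17 to −0.21, as Mef2Da1 goes from a height of 35 to 53 and Mef2Da2 from 43 to 36.

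Distance to the next region had little bearing on the ratio. The distance was taken to the nearest region on the same chromosome, edge to edge. The median ratio was 0.22 in the 2964 regions with a neighbour under 1 kb away and 0.14 at 1 to 10 kb. It was 0.16 at 10 to 100 kb and 0.15 in the 1738 regions further than 100 kb from any other. Regions under 10 kb from a neighbour exceeded those over 100 kb by 0.03 (0.14 among regions with a listed peak). In the upper quintiles of summed height this difference was 0.16 (the second highest) and 0.13 (highest), and in the lowest it was −0.03. The spread of the ratio was wider in isolated regions, with an interquartile range of 1.00 over 100 kb against 0.81 under 1 kb. Isolated regions were also narrower, at a median of 492 bp against 614 bp.

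Regions past 4-fold did not gather among crowded regions. Of the 78 toward Mef2Da1, 37.2% had a neighbour under 10 kb away, of the 152 toward Mef2Da2 42.8%, and of all regions 47.7%. By distance class the share past 4-fold lay between 0.279% and 0.512% toward Mef2Da1, and between 0.607% and 0.863% toward Mef2Da2, with intervals that overlapped. Both ranges contain the background share of that side.

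Neighbouring regions were weakly alike in their ratio. Over 349 pairs less than 100 bp apart the Spearman correlation of the ratio was 0.22. It was 0.18 at 100 bp to 1 kb, 0.10 at 1 to 10 kb, 0.09 at 10 to 100 kb and 0.06 over 100 kb, across pairs that share both libraries. After the median of each decile of summed height was subtracted it was 0.16 for all 1593 pairs under 1 kb, against 0.19 before. The ratio of the blocked controls had correlations between −0.03 and 0.02 over the same classes. Even the closest neighbours differed by a median of 0.52 on the log2 scale, against 0.66 over 100 kb.

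Regions past 4-fold were also looked for next to each other, where shares this small leave room for few pairs. Of 19730 pairs of neighbouring regions, none was past 4-fold toward Mef2Da1, none to opposite sides and 1 toward Mef2Da2. The pair was chr8:108007820-108008651, with 118 for Mef2Da2 and 28 for Mef2Da1 against 14 and 20 in the blocked libraries, and chr8:108125170-108125574, with 101 and 23 against 8 and 8. They lie 116518 bp apart. The nearest neighbour of a region past 4-fold toward Mef2Da1 had a median ratio of 0.23, and that of one toward Mef2Da2 had 0.06, against 0.16 for the neighbours of all regions. Of 18 regions past 4-fold toward Mef2Da2 with a neighbour under 1 kb away, the neighbour was on the Mef2Da2 side in 6 and none was past 2-fold to that side. Toward Mef2Da1 the neighbour was on the same side in 9 of 11 and past 2-fold in 1. Among all regions with a neighbour under 1 kb away, 35.3% were on the Mef2Da2 side and 64.7% on the Mef2Da1 side, and the counts are to be read against these shares.

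**Figure D5:**
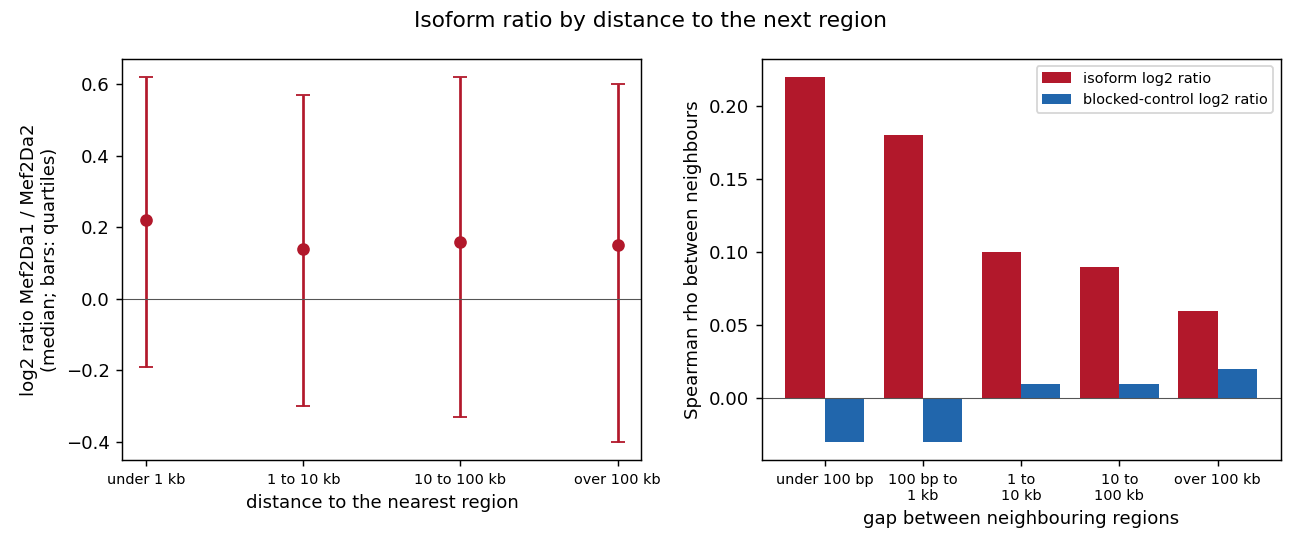
Left, log2 ratio of Mef2Da1 over Mef2Da2 (points are medians, bars quartiles) by distance to the nearest region; right, Spearman correlation of the log2 ratio between neighbouring regions by the gap between them, red for the isoforms and blue for the blocked controls. Medians lie between 0.14 and 0.22, and the red bars go from 0.22 under 100 bp to 0.06 over 100 kb.

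The regions of the table lie on the 19 autosomes, and X and Y were not analysed here. All 19 had a median ratio on the Mef2Da1 side under total scaling, from 0.05 on chromosome 3 to 0.27 on chromosome 11. The median over all regions was 0.17 under that scaling. Scaled to the median ratio, the medians ran from −0.12 on chromosome 3 to 0.10 on chromosome 11, so the common side depends on the scaling. Regions past 4-fold toward Mef2Da2 were found on all 19 autosomes, and those toward Mef2Da1 on all but 2. Toward Mef2Da2 each had between 4 and 15, with the lowest share on chromosome 15 (5 of 1452, 0.344%, interval 0.112 to 0.802) and the highest on chromosome 14 (8 of 643, 1.24%, 0.539 to 2.44). Toward Mef2Da1 chromosome 7 had 0 of 858 (interval 0 to 0.429) and chromosome 14 had 0 of 643 (0 to 0.572). The highest share was on chromosome 16 (5 of 668, 0.749%, 0.243 to 1.74). The intervals given for chromosomes 14 and 15 contain the background of 0.770% toward Mef2Da2. Those given toward Mef2Da1 for chromosomes 7, 14 and 16 contain the background of 0.395% on that side.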

How the data were processed

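ChIP-seq libraries of Mef2Da1, Mef2Da2 and their peptide-blocked antibodies were analysed, 1 per group, grouped by the antibody in the labels. Per the labels' protocols, chromatin was fixed with 1% formaldehyde for 30 minutes, digested with MNase and sonicated to 150 to 300 bp, and libraries were amplified for 21 PCR rounds. The submitters' processing notes name BWA 0.5.9 and mm9. How peaks were called and regions joined is not given in the sources used here. The signal columns deposited by the authors are coverage heights per region or peak, and the −log10 p columns are the authors' own. For the blocked libraries the deposited log p column was treated as a score, since some values are below 0. Each table column was assigned to the sample whose peak list bears its name, and the blocked columns to the control of that antibody.

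Log2 ratios used a pseudocount of 1 and scaling to column totals, with the median ratio, no scaling and blocked totals as alternatives. Listed peaks were assigned to regions by overlap of at least 1 bp. Code was tested on simulated heights. Regions are named by a rule: the 10 greatest ratios a side, the 5 a side within the highest decile of summed height, the 3 highest regions, the pairs next to the 4-fold limit and the closest pairs past it, of which the text prints a part. The ratio, the scalings and the fold limit were chosen with earlier results of these data known, and the ranking by blocked coverage, by 1 isoform alone and the peak widths were chosen after seeing the data. The reference tables at hand were of another build, so no gene, motif or sequence was used. Values were computed with NumPy 2.4.6, SciPy 1.17.1 and pandas 2.3.3 under Python 3.11.15, and plotted with Matplotlib 3.10.9.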

Additional observations from a re-analysis of the deposited data

How the results depend on the processing

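No paired analysis was possible because each group has 1 library. Of 50 alternative values, 33 stayed within the bound set (1.5 times for counts, 0.05 for correlations, the binomial interval of the medians or quartiles otherwise), 16 moved and 1 changed sign. Scaling to the median ratio subtracts the same constant from every log2 ratio. It cannot change a difference of medians, an interquartile range or a correlation, and such values are among the 33 by construction. The count past 4-fold toward Mef2Da1 (78) was 15 with blocked totals, 35 with a pseudocount of 5, 19 among regions at or above the median summed height (fewer regions by construction) and 337 after division by the ratio of the blocked controls. Toward Mef2Da2 (152) it was 236 with median scaling, 608 with blocked totals, 85 with a pseudocount of 5 and 383 after that division. The difference in interquartile range between the lowest and highest decile of summed height (−0.10) was 1.25 among regions with a listed peak and 0.00 with quintiles. The difference in median ratio along summed height (−0.81) was −0.74 with a pseudocount of 5, −1.15 among regions with a listed peak, −0.67 with quintiles and −0.90 ranked by summed −log10 p, an alternative added after seeing the data. The difference along width (0.12) was 0.60 among regions with a listed peak and 0.49 within height quintiles, and the difference by distance (0.03) was 0.14 among regions with a listed peak. Apart from the changed set of regions and classes, the cause was not tested. The difference of −log10 p is no fold and gave no count; across regions its Spearman correlation with the ratio was 0.97. Unknown depth limits every comparison of heights between libraries.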
